A study of Mus musculus with 23 samples.

Results

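The 7 genes described here, Ms4a4b, Ms4a6b, Ms4a4c, Ms4a6c, Ms4a6d, Ms4a7 and Ms4a3, encode membrane proteins of the Ms4a family that are expressed in T cells or in myeloid cells. They are 7 of the 24475 genes in the table and 7 of its 17 Ms4a genes. They were selected by name, and chosen on values already measured in these same samples, so the differences between groups given below are a description without a test. RNA was sequenced from 23 mouse samples to characterize T-cell acute lymphoblastic leukemia (T-ALL) that arises in a transplanted thymus. The 6 controls were normal thymus of C57BL/6 mice (Thymus). The other 17 samples were unfractionated spleens of BALB/c Rag2-/-Il2rg-/- hosts that carried a donor thymus under the kidney capsule and had developed T-ALL. The donor thymus was wild type in 14 of them (WT T-ALL) and a Notch3 knockout in 3 (Notch3 KO T-ALL). The wild-type donors were newborns of a CD45.1 congenic line on the C57BL/6 background. The hosts make no T, B or NK cells of their own but keep myeloid and erythroid cells, so each spleen library mixes leukemic cells of the donor with host cells. For its exome samples the paper describes such spleen cells as mostly leukemic on average. Thymus and leukemic samples differ in tissue and host as well as in disease, and these cannot be told apart. The study counts each of its expression samples as 1 mouse.

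Ms4a proteins cross the membrane several times and sit beside immune receptors, whose signaling and transport they modulate. Ms4a4b and Ms4a6b are made by T cells, where both associate with the costimulatory receptor GITR and Ms4a4b restrains proliferation. Ms4a4c, Ms4a6c, Ms4a6d and Ms4a7 are known from monocytes and macrophages. Ms4a3 marks granulocyte and monocyte progenitors of the bone marrow and spleen, where it binds the phosphatase encoded by Cdkn3 and the common beta chain of the GM-CSF receptor, encoded by Csf2rb.

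All 7 genes lie within 320 kb on chromosome 19 of assembly GRCm38, from 11321039 to 11640851, inside a run of 19 Ms4a genes that spans 679 kb in the GENCODE annotation. From the low to the high end the order was Ms4a7 (minus strand), Ms4a4c, Ms4a4b, Ms4a6c and Ms4a6b (plus strand), then Ms4a6d and Ms4a3 (minus strand). Ms4a4b (gene 60361, chr19:11443553-11467055) and Ms4a4c (gene 64380, chr19:11404770-11427246) are neighbours, as are Ms4a4b and Ms4a6c (gene 73656, chr19:11469366-11482192). Ms4a6b (gene 69774, chr19:11516512-11531256) starts 73.0 kb beyond the start of Ms4a4b. Ms4a3 (gene 170813, chr19:11629496-11640851), Ms4a6d (gene 68774, chr19:11586604-11604849) and Ms4a7 (gene 109225, chr19:11321039-11336146) complete the set. T-cell and monocyte members thus alternate along the plus-strand run.

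The promoters of these neighbours are shown because the pairs resemble each other in sequence while their levels, below, differ. RefSeq promoter windows (GRCm38.p6, 250 bases before to 50 bases after the start) were matched for 6 of the 7 genes, with 2 starts for Ms4a7. Over the 21 pairs of windows the median identity of a global alignment was 45.3%. The windows of Ms4a4b and Ms4a4c were identical in 72.1% of alignment columns, and those of Ms4a6b and Ms4a6c in 51.2%. The next highest pair had 49.1%. Capitals mark the longest run shared by the pair, 20 bases for Ms4a4b and Ms4a4c and 48 bases for Ms4a6b and Ms4a6c. In the remaining pairs the longest run was 7 to 12 bases. All 4 sequences are from the plus strand, 5′ to 3′, and the RefSeq starts of Ms4a4c and Ms4a6b lie inside their GENCODE gene spans.
Ms4a4b, chr19:11443308-11443607: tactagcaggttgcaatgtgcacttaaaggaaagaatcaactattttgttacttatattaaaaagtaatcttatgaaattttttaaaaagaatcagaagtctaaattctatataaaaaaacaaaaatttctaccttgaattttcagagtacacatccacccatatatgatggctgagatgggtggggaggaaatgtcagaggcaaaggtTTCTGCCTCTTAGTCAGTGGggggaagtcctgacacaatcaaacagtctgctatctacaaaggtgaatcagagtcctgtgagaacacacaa
Ms4a4c, chr19:11407411-11407710: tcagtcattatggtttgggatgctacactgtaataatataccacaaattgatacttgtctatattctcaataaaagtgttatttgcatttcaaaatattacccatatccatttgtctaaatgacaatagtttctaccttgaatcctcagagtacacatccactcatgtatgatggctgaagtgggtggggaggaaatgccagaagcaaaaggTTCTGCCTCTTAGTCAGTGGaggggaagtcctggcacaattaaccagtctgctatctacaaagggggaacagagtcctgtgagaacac
Ms4a6b, chr19:11518309-11518608: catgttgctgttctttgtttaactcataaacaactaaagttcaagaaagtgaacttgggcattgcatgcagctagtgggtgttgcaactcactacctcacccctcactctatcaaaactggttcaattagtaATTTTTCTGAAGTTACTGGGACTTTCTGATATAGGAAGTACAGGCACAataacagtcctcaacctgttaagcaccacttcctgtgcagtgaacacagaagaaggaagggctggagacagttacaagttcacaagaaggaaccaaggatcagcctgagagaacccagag
Ms4a6c, chr19:11469118-11469417: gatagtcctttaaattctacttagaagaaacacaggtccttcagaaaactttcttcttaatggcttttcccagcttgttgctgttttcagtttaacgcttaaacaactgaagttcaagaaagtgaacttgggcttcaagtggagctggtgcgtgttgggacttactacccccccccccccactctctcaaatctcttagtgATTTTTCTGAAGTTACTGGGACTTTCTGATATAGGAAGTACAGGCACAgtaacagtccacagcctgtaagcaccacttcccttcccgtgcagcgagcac
The run lies 41 to 22 bases before the start in Ms4a4b and 38 to 19 before it in Ms4a4c. In Ms4a6c it ends 2 bases before the start, while in Ms4a6b it lies 118 to 71 bases before it. The run shared by Ms4a6b and Ms4a6c holds the letters GGAAGT, the core bound by ETS factors such as PU.1. Searched on both strands, GGAAGT was in 6 of the 7 windows of these genes (absent from the second start of Ms4a7) and in 23.8% of all 32851 promoter windows. TTNCNNAA, a C/EBP-type pattern, was in all 7 windows and in 40.7% of all windows, and TGTGGT, the RUNX core, was in that of Ms4a4c and in 16.8% of all. The interferon response element and AGATAA, the GATA core, were in none of the 7 and in 3.44% and 11.2% of all windows. A match of GGAAGT overlapped one of TTNCNNAA in the window of Ms4a3, and no other matches overlapped in these windows. The patterns were picked after the sequences had been seen, and a match is a string of letters only.

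Values are log2(scaled RPKM + 1), which understates fold changes of low genes, and are comparable between genes because RPKM is given per length of transcript. The paper gives only an approximate number of reads per sample, and the depth of each library is unknown, since no counts were used. Each of the 23 libraries had 10154 to 11011 genes at or above a scaled RPKM of 1. Hemoglobin genes took at most 0.117% of the total signal in thymus, whereas their share was 0.0874% to 5.92% among WT T-ALL and 4.05% to 15.5% among Notch3 KO T-ALL libraries. Mitochondrial genes took 44.5% in WT T-ALL 7, which stands apart from the 9.84% to 20.2% of the other WT T-ALL libraries, and leaving it out turned no difference of the 7 genes between WT T-ALL and thymus and changed no call of their slopes below. The genes Sco2, Srsf4 and 1110002L01Rik split the libraries into a set A (mean level 3.94 to 4.45: thymus 5 and 6, WT T-ALL 3, 4, 5 and 7, and all 3 Notch3 KO T-ALL) and a set B of the other 14 libraries (1.31 to 2.25). The labels name no batch, so what made this split is not known. Values within set A and set B are given beside the differences. Notch3, the gene removed from 1 group of donors, was at 3.22, 2.59 and 3.74 in Notch3 KO T-ALL. The WT T-ALL libraries held 3.17 to 5.78 of it and thymus 2.62 to 4.29, so 2 of the 3 knockout libraries lay inside the WT T-ALL range. The knockout carries a beta-galactosidase gene in frame in the first coding exon, and reads from later exons and from host cells may remain, so Notch3 checks the label only in part.

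Ms4a4b was the highest of the 7 genes in each of the 6 thymus libraries. Its level there was 5.57 at the lowest, 6.27 at the median and 6.91 at the highest. In WT T-ALL it was 1.40 at the lowest (library 126), 2.80 at the median and 5.81 at the highest (library 48). The 3 Notch3 KO T-ALL libraries were at 3.15, 0.97 and 0.77. Thus 13 of 14 WT T-ALL libraries and all 3 Notch3 KO T-ALL libraries lay below every thymus library, and WT T-ALL 48 alone lay inside the thymus range. The mean of 6.23 ± 0.46 (SD, n = 6) in thymus compared with 2.99 ± 1.14 (n = 14) in WT T-ALL, a difference of -3.24, and with 1.63 ± 1.32 (n = 3) in Notch3 KO T-ALL, a difference of -4.60. Within set A the differences were -2.80 and -4.27, and within set B, which holds no Notch3 KO T-ALL, the difference for WT T-ALL was -3.45.

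Ms4a6b, the other T-cell member, was between 5.23 and 6.17 in thymus, with a median of 5.43. It spanned 3.33 (library 3), 4.67 and 5.96 (library 48) as the lowest, median and highest value in WT T-ALL. In Notch3 KO T-ALL it was 5.13, 2.97 and 3.15. Here too 13 of 14 WT T-ALL libraries and all 3 Notch3 KO T-ALL libraries lay below every thymus library, but the gap was narrow, since Notch3 KO T-ALL 1 came close to the lowest thymus library (5.23 in thymus 2). The difference of means was -1.02 for WT T-ALL (4.52 ± 0.81 against 5.54 ± 0.36) and -1.78 for Notch3 KO T-ALL (mean 3.75). Within set A these were -1.13 and -1.55, and within set B the difference for WT T-ALL was -1.0.

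The pair changed places between the tissues. In thymus Ms4a4b exceeded Ms4a6b in all 6 libraries, by 0.69 ± 0.19 on the log2 scale. In WT T-ALL it was below Ms4a6b in 13 of 14 libraries, with a mean difference of -1.53 ± 0.89, and only WT T-ALL 5 kept the thymus order (0.53). All 3 Notch3 KO T-ALL libraries had the leukemic order, at -1.99, -2.0 and -2.38. Ms4a4b was thus lower in leukemic spleen by more than Ms4a6b was, and Ms4a6b was the highest of the 7 genes in 10 of 14 WT T-ALL and 2 of 3 Notch3 KO T-ALL libraries.

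**Figure D1:**
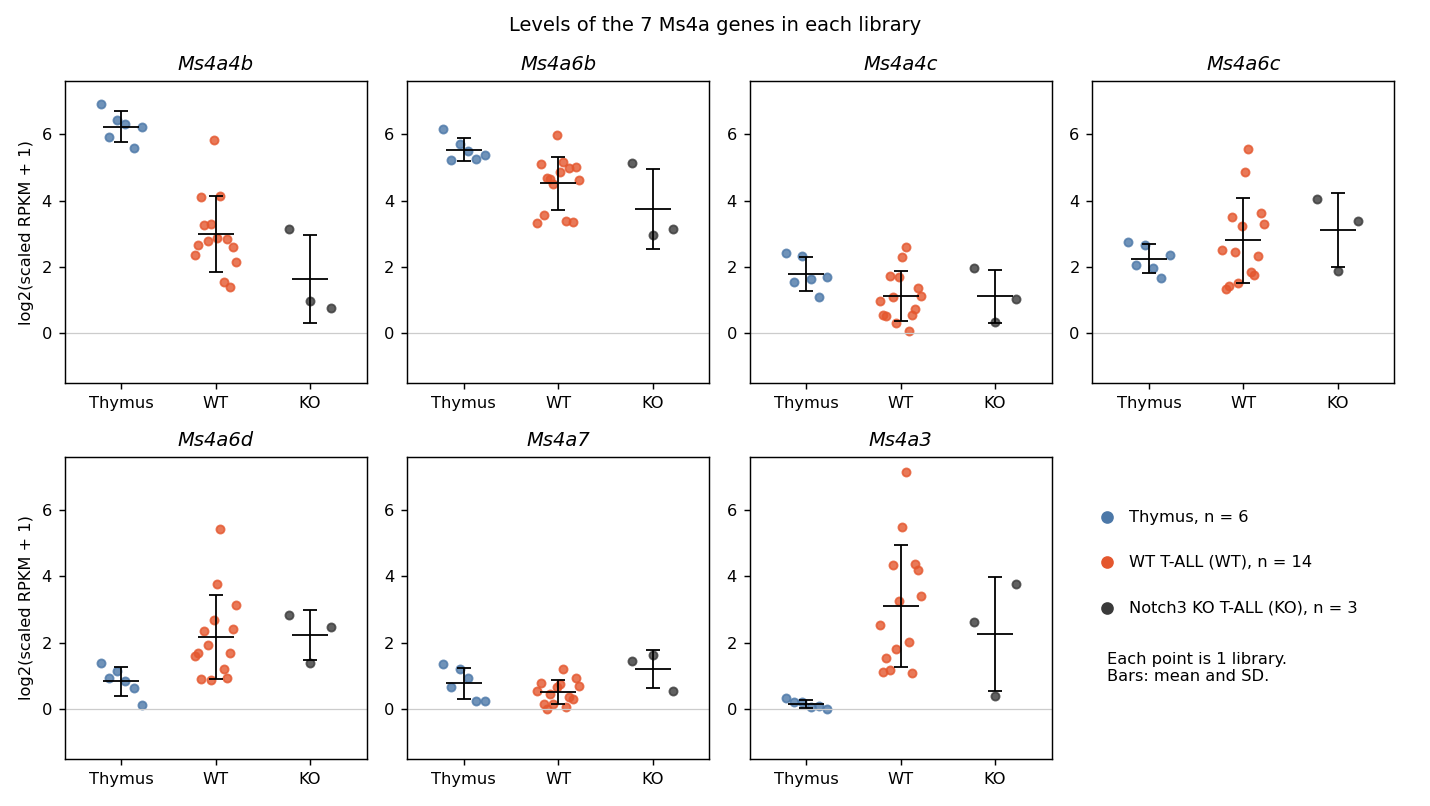
Level of each of the 7 Ms4a genes, as log2(scaled RPKM + 1), in every library of Thymus (n = 6), WT T-ALL (WT, n = 14) and Notch3 KO T-ALL (KO, n = 3), with the mean and SD as bars. Ms4a4b and Ms4a6b stand highest in thymus, with WT T-ALL 48 the only leukemic library inside the thymus range of Ms4a4b, while Ms4a3 lies at or below 0.34 in thymus and reaches 7.13 in WT T-ALL.

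Groups that did not overlap give a background for these counts. Of 11919 genes that reached a scaled RPKM of 1 in 3 or more libraries, 6.64% had every WT T-ALL library below every thymus library and 8.42% had every one above. For Notch3 KO T-ALL, with 3 libraries only, 18.4% lay wholly below and 23.9% wholly above thymus. Of the 7 genes, none was wholly below and Ms4a3 wholly above thymus in WT T-ALL, while Ms4a4b and Ms4a6b were wholly below and Ms4a3 wholly above in Notch3 KO T-ALL. Both comparisons share the 6 thymus libraries and the choice of genes used them, so nothing is read from these counts.

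Ms4a3 was close to absent from thymus, with 0, 0.15 and 0.34 as the lowest, median and highest value. It was at least 1.10 in every WT T-ALL library, with a median of 2.88 and a highest value of 7.13 (library 110). The 3 Notch3 KO T-ALL libraries were at 2.64, 0.40 and 3.77. Each leukemic library therefore lay above each thymus library, although Notch3 KO T-ALL 2 (0.40) was close to the highest of them. Among WT T-ALL the gene ranged from a scaled RPKM of 1.14 to 139, the widest range of the 7 genes, and it was the highest of them in libraries 108, 110 and 126. The mean was 0.15 ± 0.12 in thymus, 3.10 ± 1.83 in WT T-ALL and 2.27 ± 1.71 in Notch3 KO T-ALL, which gave differences of 2.95 and 2.12. Within set A the difference for WT T-ALL was 1.54 and within set B 3.51, and that for Notch3 KO T-ALL within set A was 2.22. With the mean level of erythroid markers as a covariate the differences became 0.33 and -1.96, so the direction for Notch3 KO T-ALL turned. The mean in Notch3 KO T-ALL also rested on single libraries, since the difference from thymus was 3.05 when library 2 was left out and 1.37 when library 3 was.

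The 4 monocyte and macrophage members did not share 1 direction. Ms4a6d, a macrophage member, was between 0.12 and 1.39 in thymus, with a median of 0.89. In WT T-ALL it was 0.89 at the lowest, 1.82 at the median and 5.41 at the highest (library 110), and in Notch3 KO T-ALL 2.84, 1.37 and 2.47. It lay above every thymus library in 10 of 14 WT T-ALL and 2 of 3 Notch3 KO T-ALL libraries, and above the thymus mean in all 17. The difference of means was 1.34 for WT T-ALL (1.26 within set A, 1.33 within set B) and 1.38 for Notch3 KO T-ALL (1.85 within set A). With the erythroid score as a covariate these became 0.22 and -0.36.

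Ms4a6c was the highest of the 4 in thymus, at 1.66, 2.22 and 2.76 for the lowest, median and highest library. In WT T-ALL it was 1.35 at the lowest (library 4), 2.49 at the median and 5.56 at the highest (library 110), and in Notch3 KO T-ALL 4.06, 1.89 and 3.40. The groups overlapped widely, with 6 WT T-ALL libraries above, 3 below and 5 within the thymus range. The difference of means, 0.56 for WT T-ALL and 0.87 for Notch3 KO T-ALL, was below the SD of 1.29 and 1.11 within the leukemic groups. Within set A the differences were 0.19 and 1.10, and within set B that for WT T-ALL was 0.68. The direction turned with the erythroid score as a covariate (-0.29 and -0.44). Leaving out WT T-ALL 110 gave 0.34 for WT T-ALL, and leaving out Notch3 KO T-ALL 1 or 2 gave 0.39 or 1.48 for the knockout group.

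Ms4a4c went the other way. It was 1.09, 1.67 and 2.42 at the lowest, median and highest in thymus and 0.08 (library 111), 1.04 and 2.61 (library 110) in WT T-ALL. The Notch3 KO T-ALL libraries were at 1.96, 0.36 and 1.04. Of the WT T-ALL libraries, 7 of 14 lay below every thymus library and 1 lay above. The difference of means was -0.67 in both leukemic groups, with -0.44 (WT T-ALL) and -0.28 (Notch3 KO T-ALL) within set A and -0.80 for WT T-ALL within set B. Leaving out Notch3 KO T-ALL 1 moved the difference in that group to -1.09, and leaving out library 2 moved it to -0.29. The differences for WT T-ALL and Notch3 KO T-ALL were larger with the erythroid score as a covariate (-1.02 and -1.21) and with an offset of 0.1 in place of 1 before the log (-1.22 and -1.19).

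Ms4a7 had the lowest mean of the 7 genes in WT T-ALL. A scaled RPKM of 1 was reached in 2 thymus, 1 WT T-ALL and 2 Notch3 KO T-ALL libraries. Its level was 0.23, 0.80 and 1.36 at the lowest, median and highest in thymus, and 0, 0.50 and 1.22 in WT T-ALL. In Notch3 KO T-ALL it was 1.45, 1.63 and 0.54, and 2 of these 3 lay above every library of both other groups. The means were 0.78 ± 0.48 in thymus, 0.51 ± 0.36 in WT T-ALL and 1.21 ± 0.59 in Notch3 KO T-ALL. The difference between WT T-ALL and thymus, -0.27, was 0.13 within set A, -0.48 within set B and -0.15 without thymus 1, and the knockout group lay 0.43 above thymus (0.97 within set A, 0.22 without Notch3 KO T-ALL 2, 0.77 without library 3), a direction that turned with the erythroid score as a covariate (-0.21).

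Summed over the 7 genes, thymus held a scaled RPKM of 87.7 to 203. The sum ranged from 18.4 to 285 among WT T-ALL libraries and from 14.8 to 73.7 among those of Notch3 KO T-ALL. Ms4a4b and Ms4a6b made up 91.9% to 95.3% of the sum in thymus. Their share was 18.1% (library 110) to 87.7% (library 120) in WT T-ALL and 57.0%, 52.8% and 23.3% in Notch3 KO T-ALL. No leukemic library reached the thymus range of this share, although the sums of WT T-ALL 48 and 108 lay within the thymus range and that of WT T-ALL 110 above it. In WT T-ALL 48 the T-cell pair gave 116 of a sum of 142, whereas in WT T-ALL 110 Ms4a3 gave 139 and the 4 monocyte and macrophage members 94.3 of a sum of 285.

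**Figure D2:**
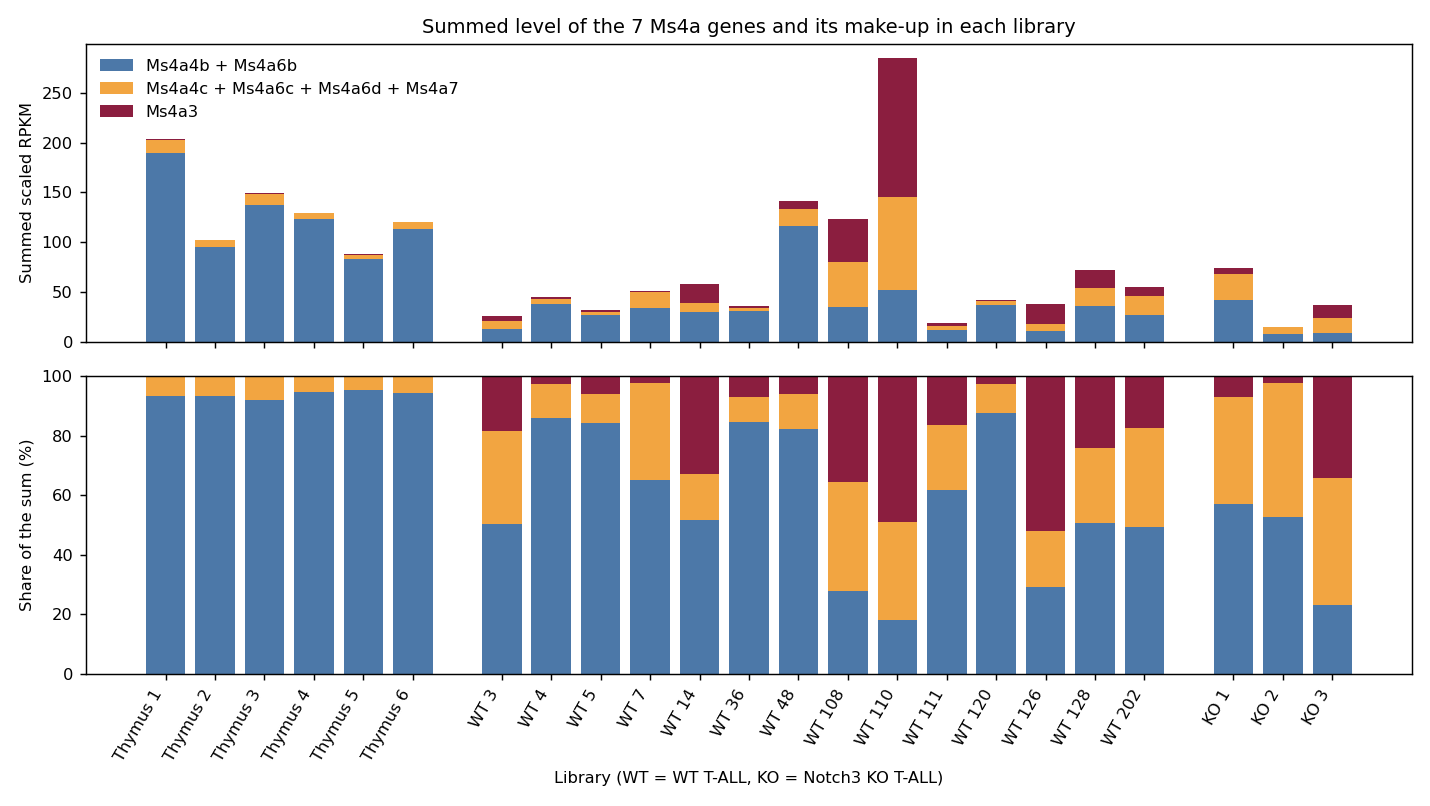
Upper panel, summed scaled RPKM of the 7 Ms4a genes in each library, split into Ms4a4b with Ms4a6b, the 4 monocyte and macrophage members, and Ms4a3. Lower panel, the same parts as percent of the sum. The T-cell pair fills at least 91.9% of the sum in every thymus library and at most 87.7% in any leukemic one.

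Markers of other cell types moved with these differences. In WT T-ALL against thymus, limma called 11 of 12 macrophage, 4 of 8 monocyte, 6 of 7 neutrophil precursor, 10 of 10 mature neutrophil, 5 of 6 basophil and mast cell and 6 of 7 erythroid markers higher, beside 29.3% of all genes. It called 4 of 8 mature T cell, 4 of 8 pan T cell, 10 of 10 double-positive thymocyte and 4 of 4 B cell markers lower, beside 22.3% of all genes. The mature T cell list also held 1 marker called higher. In Notch3 KO T-ALL against thymus 12 of 12 macrophage, 1 of 8 monocyte, 2 of 7 neutrophil precursor, 2 of 10 mature neutrophil, 1 of 6 basophil and mast cell and 7 of 7 erythroid markers were called higher, beside 21.2% of all genes, and 6 of 8 mature T cell, 2 of 8 pan T cell and 10 of 10 thymocyte markers lower, beside 16.3%. The monocyte marker F13a1 and the neutrophil precursor marker Gfi1 were called lower in both comparisons (limma differences of -2.75 and -0.60 in WT T-ALL and of -2.27 and -0.72 in Notch3 KO T-ALL). Summed, the neutrophil precursor markers reached a scaled RPKM of 30.1 to 60.7 in thymus, of 42.9 to 1219 in WT T-ALL and of 33.1 to 177 in Notch3 KO T-ALL. In the same order of groups the sums were 9.74 to 64.5, 23.9 to 395 and 281 to 413 for macrophage markers and 68.2 to 145, 47.7 to 6758 and 80.4 to 599 for monocyte markers. The mature T cell markers summed to 124 to 272, 131 to 479 and 128 to 285. A sum follows the most abundant markers. For the mature T cell and neutrophil precursor lists, the mean level of all markers separated the groups further than the sum did. The median sum of mature T cell markers was higher in WT T-ALL (266.5) than in thymus (212), whereas their mean level was lower in most WT T-ALL libraries. The mean level of the 8 mature T cell markers ranged from 3.53 to 4.71 among thymus, from 2.43 to 3.94 among WT T-ALL and from 1.75 to 2.88 among Notch3 KO T-ALL libraries, so that all 3 Notch3 KO T-ALL libraries and the WT T-ALL libraries other than 36, 48 and 110 lay below every thymus library, in the same direction as Ms4a4b and Ms4a6b. That of the 7 neutrophil precursor markers was 0.95 to 1.49, 2.22 to 7.10 and 1.49 to 4.52, with every WT T-ALL library above every thymus library, as for Ms4a3. Mean levels were 0.72 to 2.01, 1.30 to 4.24 and 3.71 to 4.29 for macrophage markers and 1.92 to 2.98, 1.98 to 5.86 and 2.11 to 3.91 for monocyte markers. No marker of these 4 lists was at 0 throughout a group. In bulk tissue fewer cells of a type and less RNA per cell cannot be told apart, and the part of these cell types in the differences of the Ms4a genes was not tested. Notch3 KO T-ALL 2, with the lowest Ms4a3 of the leukemic libraries, also had the lowest sum and mean level of neutrophil precursor markers among them.

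Between the leukemic groups the 7 genes overlapped without exception. The background was small, with 0.591% of 11677 genes called higher and 0.0257% lower in Notch3 KO T-ALL by limma, and 0.325% wholly above and 0.111% wholly below WT T-ALL. None of the marker lists held a called gene. Ms4a4b was lower by 1.36 on average (a difference of -1.36, or -1.47 within set A), with Notch3 KO T-ALL 2 and 3 below every WT T-ALL library and Notch3 KO T-ALL 1 inside their range. Ms4a6b showed the same arrangement with a difference of -0.76 (-0.42 within set A). Without Notch3 KO T-ALL 1, which was the highest of the 3 for both genes, the differences were -2.12 and -1.45, and without library 2 that of Ms4a6b was -0.37. For Ms4a7 the difference was 0.70 (0.84 within set A), and 2 of 3 Notch3 KO T-ALL libraries lay above every WT T-ALL library. For Ms4a3 it was -0.83, but 0.68 within set A, 0.10 with knockout library 2 left out, -1.58 with knockout library 3 left out and -2.35 with the erythroid score as a covariate. All Notch3 KO T-ALL libraries belong to set A, so the pooled difference mixes the genotype with the split.

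The 14 WT T-ALL libraries were then compared with each other, since a relation between tumors is not set by the difference from thymus. The genes had been chosen with these values known, so the p-values are no independent support. Scores were the mean level of 7 neutrophil precursor, 7 monocyte, 11 macrophage and 7 mature T cell markers, and a slope is the change of a gene's level per unit of score, tested by limma over 11476 genes. Ms4a3 had a slope of 1.17 ± 0.07 (SE) on the neutrophil precursor score, with an adjusted p of 4.0e-08, the 4th smallest p of all genes. The score's own markers are among those genes. Pearson's r was 0.98 and Spearman's rho 0.93, with permutation p of 1e-05 (the smallest 100000 permutations can give) and 2e-05. Without WT T-ALL 108 and 110, the libraries farthest from the median score, r was 0.95, and over the 10 libraries of set B it was 0.98. Ms4a3 followed the monocyte score (slope 1.35, adjusted p = 1.4e-05) and the macrophage score (1.46, adjusted p = 0.0152) as well, and the 3 myeloid scores were correlated with each other (r of 0.82 to 0.94), so they are not separate lines of evidence.

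By r over all 14 libraries, Ms4a6c and Ms4a6d followed the monocyte score most closely of the members. By rho Ms4a3 (0.89) came ahead of Ms4a6d. Ms4a6c had a slope of 0.98 ± 0.09 and a limma adjusted p of 2.1e-06. Its r was 0.95 and rho 0.90, with permutation p of 1e-05 and 6e-05, and r was 0.87 without WT T-ALL 108 and 110 and 0.97 within set B. Ms4a6d had 0.94 ± 0.10 and a limma adjusted p of 9.9e-06. Its r was 0.93 and rho 0.84, with permutation p of 1e-05 and 0.00033, and r was 0.79 without those libraries and 0.95 within set B. Ms4a4c had a shallower slope of 0.52 ± 0.09 and a limma adjusted p of 0.000907. Its r was 0.86 and rho 0.79, with permutation p of 0.00011 and 0.00133, and r was 0.63 without them and 0.90 within set B. Its mean was below that of thymus, and yet its level rose with the monocyte markers from tumor to tumor. On the monocyte score 4 of the 6 members tested had a positive slope with an adjusted p under 0.05, beside 6.62% of all genes. On the neutrophil precursor score these were the same 4 genes, beside 5.38%, and on the macrophage score Ms4a6c, Ms4a6d and Ms4a3, beside 3.52%. Ms4a7 did not pass the filter on low values in WT T-ALL. Its r with the monocyte score was 0.68 over all 14 libraries (rho 0.56, permutation p of 0.00592 and 0.0384) and 0.40 without WT T-ALL 108 and 110. Without these libraries, limma still called the slope of Ms4a3 on the neutrophil precursor score (1.11, adjusted p = 0.000252) and, on the monocyte score, those of Ms4a6c (0.89, adjusted p = 0.0179) and Ms4a3 (1.27, adjusted p = 0.0376). The slopes of Ms4a6d (0.71, adjusted p = 0.0812) and Ms4a4c (0.41, adjusted p = 0.570) were no longer called, nor was any slope of a member on the macrophage score or of the other members on the neutrophil precursor score.

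The T-cell members had no called slope. Ms4a4b had slopes of 0.09, -0.05 and -0.19 on the monocyte, neutrophil precursor and macrophage scores, and Ms4a6b 0.19, 0.08 and 0.10, none of them called (limma adjusted p of 0.629 to 0.939). On the mature T cell score Ms4a4b had a slope of 1.28 ± 0.45 with an unadjusted p of 0.0118 and an adjusted p of 0.306 in limma, and Ms4a6b 0.70 ± 0.35 (adjusted p = 0.486). Pearson's r of Ms4a4b with that score was 0.60 (permutation p = 0.0232), with 0.60 also without WT T-ALL 36 and 110 and 0.72 within set B, while rho was 0.47 (permutation p = 0.0895). No gene passed the adjusted threshold on this score (0 of 11476 genes, 0%), while 1256 had an unadjusted p under 0.05. In all, 28 relations of a member with a score were computed.

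Among the members themselves, 21 pairs were compared over the same 14 libraries. Ms4a4c, Ms4a6c and Ms4a6d formed the closest trio, with r of 0.95 (Ms4a4c and Ms4a6c), 0.94 (Ms4a6c and Ms4a6d) and 0.91 (Ms4a4c and Ms4a6d). Their rho was 0.90, 0.85 and 0.92 in that order. Each r had a permutation p of 1e-05, the smallest possible, and was 0.81 to 0.88 without WT T-ALL 108 and 110. Ms4a4b and Ms4a6b had an r of 0.63 (permutation p = 0.0151) and a rho of 0.56 (permutation p = 0.0405). This r was 0.27 without WT T-ALL 48 and 126, so it rests on those libraries, and 0.87 within set B. Over all 14 libraries Ms4a6b was related about as closely to myeloid members, with an r of 0.54 to Ms4a7 (rho 0.61, permutation p of 0.0452 and 0.0227) and of 0.54 to Ms4a4c (rho 0.55, permutation p of 0.0459 and 0.0436), which were 0.63 and 0.58 without WT T-ALL 3 and 126. Within set B these r were 0.63 and 0.62, below the 0.87 of Ms4a4b with Ms4a6b. The pairs with the most alike promoters did not lead in likeness of level. Ms4a4b and Ms4a4c had an r of 0.44 (rho 0.33, permutation p of 0.116 and 0.252) and Ms4a6b and Ms4a6c one of 0.42 (rho 0.34, permutation p of 0.137 and 0.240).

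**Figure D3:**
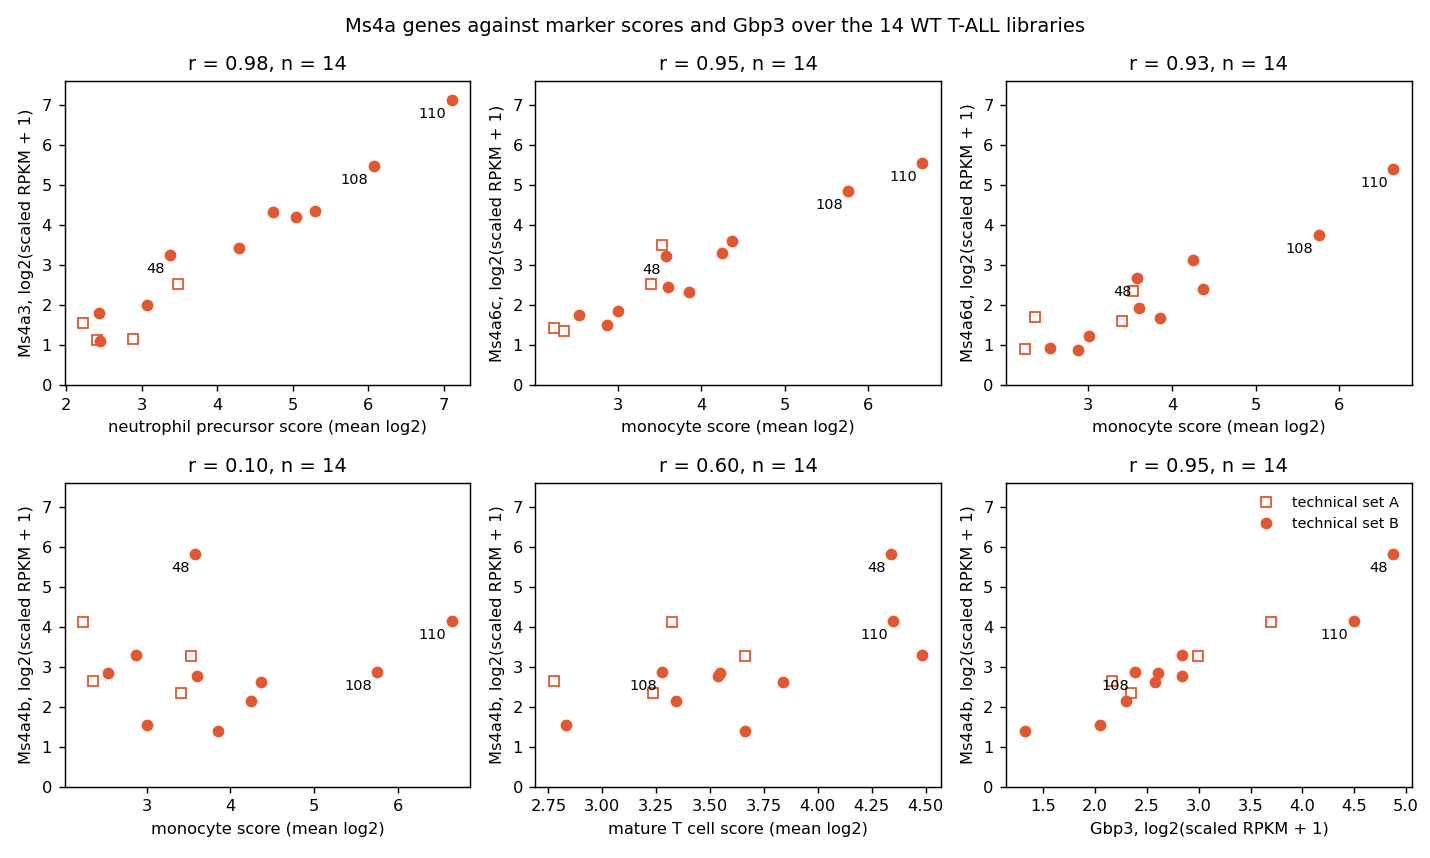
Level of Ms4a3, Ms4a6c, Ms4a6d and Ms4a4b, as log2(scaled RPKM + 1), against marker scores (mean log2 level of the markers) or against Gbp3 over the 14 WT T-ALL libraries, with open squares for set A, filled circles for set B and Pearson's r above each panel. Ms4a3 lies close to a line with the neutrophil precursor score (r = 0.98) and Ms4a4b with Gbp3 (r = 0.95), while Ms4a4b shows no trend with the monocyte score (r = 0.10).

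The genes most alike to each member over the 14 WT T-ALL libraries, of 10796 compared, differed between the T-cell and myeloid members. The 5 nearest Ms4a4b were Gbp3 (r = 0.95), Xaf1 (0.90), Serpinb9 (0.89), Gbp2 (0.89) and Gbp5 (0.89). Gbp2, Gbp3 and Gbp5 encode guanylate-binding proteins and Xaf1 an apoptosis factor, all known as interferon-induced genes, and Serpinb9 encodes an inhibitor of granzyme B. Without WT T-ALL 48, which was highest in Ms4a4b, these r were 0.80 to 0.92, and within set B 0.91 to 0.95. Gbp3 was 4.87 in WT T-ALL 48, 4.49 in 110 and 3.69 in 5, the 3 libraries that also led in Ms4a4b, and 1.32 in library 126, the lowest in both. Across the groups the 5 genes differed. In thymus, where Ms4a4b was highest, Gbp3 was between 1.72 and 2.33, although thymus 1 and 3 led in both genes, and among Notch3 KO T-ALL it was 1.66, 2.95 and 2.08 where Ms4a4b was 3.15, 0.97 and 0.77. Gbp2 and Xaf1 were higher in thymus than in most leukemic libraries, as Ms4a4b was. Gbp2 ranged from 3.54 to 4.42 among thymus, from 1.63 to 6.11 among WT T-ALL and from 2.22 to 2.40 among Notch3 KO T-ALL libraries. Xaf1 was 1.99 to 2.97, 0.76 to 3.15 and 1.31 to 1.55 in the same order, and for both genes only WT T-ALL 5, 36, 48 and 110 of the leukemic libraries were not below every thymus library. Gbp5 was 1.21 to 1.70, 0.21 to 4.29 and 0.40 to 1.07, and Serpinb9 overlapped between all 3 groups (1.56 to 2.50, 1.19 to 3.39 and 1.78 to 2.00). The 5 genes nearest Ms4a6b had lower r, from 0.75 (Malt1) to 0.78 (Itgb7, an integrin of lymphocytes).

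Ms4a3 was nearest to Serpinb1a (r = 0.98), Elane, Ctsg, Prtn3 and Tcn2 (0.97 each), of which Elane, Ctsg and Prtn3 encode granule proteases of neutrophil precursors and were part of its score. Ms4a6d was nearest to Clec7a (r = 0.97), which encodes the fungal receptor Dectin-1, then to Hpse, Ctsh, Hmgn3 and Tfec (0.96 to 0.97). Ms4a6c shared Hmgn3 and Ms4a4c shared Clec7a with it, and Atp8b4 was among the 5 nearest of both Ms4a6c (r = 0.96) and Ms4a4c (0.93). The nearest of Ms4a7 was Dnajb14 (0.84). The points share tissue, host strain and the split into sets A and B, and WT T-ALL 110 was the highest library for all 5 myeloid members.

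The other Ms4a genes and their relatives Tmem176a and Tmem176b, 16 by list and 12 in the table, were then examined. Ms4a1 encodes CD20 of B cells and was 0.59 to 2.24 in thymus, at most 0.05 in WT T-ALL and at most 0.08 in Notch3 KO T-ALL. It was lower by limma in both (differences of -1.45 and -1.43, adjusted p = 2.6e-07 and 7.8e-05), as were 4 and 3 of 4 other B cell markers tested. Its call in Notch3 KO T-ALL was lost under the erythroid covariate (-1.69, limma adjusted p = 0.0568). Ms4a4a, a macrophage gene that lies between Ms4a7 and Ms4a4c, was higher in WT T-ALL (0.95 ± 0.33, limma adjusted p = 0.0209) and did not pass in Notch3 KO T-ALL (1.01 ± 0.48, limma adjusted p = 0.102). Its call in WT T-ALL was lost within set A (0.82, adjusted p = 0.302), within set B (0.97, adjusted p = 0.0580), with the erythroid score as a covariate (0.58, adjusted p = 0.583) and without thymus 6 (0.88, adjusted p = 0.0508). In Notch3 KO T-ALL it was called with the split into sets as a term (1.36, limma adjusted p = 0.0387) and without Notch3 KO T-ALL 2 (1.48, limma adjusted p = 0.0336). Ms4a8a, Tmem176a and Tmem176b passed in neither comparison, so that 1 of 5 tested relatives was higher and 1 lower in WT T-ALL, which is near the background of 29.3% and 22.3% of all genes. Ms4a8a was called higher in WT T-ALL with an offset of 0.1 (2.17, limma adjusted p = 0.0205) and without WT T-ALL 110 (0.56, limma adjusted p = 0.0479), and was at -0.19 with the erythroid score as a covariate. Ms4a5, Ms4a10, Ms4a13 and Ms4a18 were listed at 0 in all 23 libraries.

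Ms4a2, which encodes the beta chain of the high-affinity IgE receptor of basophils and mast cells, lies next to Ms4a3 and was below the filter on low values. It was at most 0.05 in thymus and had a median of 0.57 in WT T-ALL, but reached 3.53 in library 108 and 3.68 in library 110. In the same libraries Fcer1a, the alpha chain of that receptor, was 3.72 and 3.17, and the basophil protease Mcpt8 was 6.22 and 6.08. These libraries also held the highest levels of Ms4a3 and Ms4a6d. High values of several Ms4a genes thus coincided in the same spleens.

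**Figure D4:**
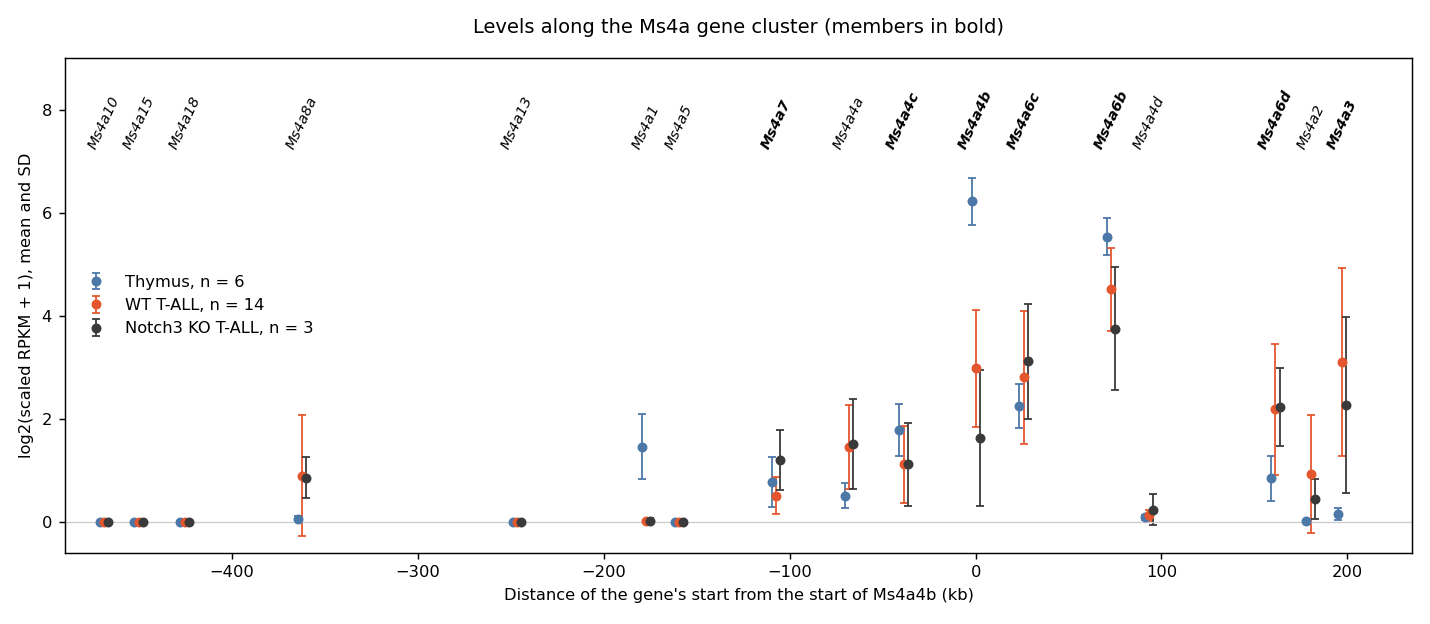
Mean and SD of log2(scaled RPKM + 1) in Thymus (n = 6), WT T-ALL (n = 14) and Notch3 KO T-ALL (n = 3) for the 17 Ms4a genes of the table, placed by the distance of each start from that of Ms4a4b in kb, with the 7 members in bold. High thymus levels stand at Ms4a4b and Ms4a6b, with Ms4a6c, lower in thymus, between them.

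Of 7 genes listed as partners of Ms4a proteins, 6 were tested. In WT T-ALL against thymus 2 of the 6 were called higher and 1 lower, near the 29.3% and 22.3% of all genes. In Notch3 KO T-ALL 1 was called higher and 1 lower, beside 21.2% and 16.3% of all genes. Tnfrsf18, which encodes GITR, the partner of Ms4a4b and Ms4a6b, was lower in both leukemic groups (-1.47 ± 0.29, limma adjusted p = 0.000244, and -1.73 ± 0.42, limma adjusted p = 0.00271). Csf2rb, whose product binds Ms4a3, was higher in WT T-ALL (1.34 ± 0.47, limma adjusted p = 0.0204) and did not pass in Notch3 KO T-ALL (limma adjusted p = 0.168). Fcer1g, the signaling chain of Fc receptors, was higher in both groups (1.40 and 2.07, limma adjusted p = 0.0331 and 0.0400). Clec7a, Cdkn3 and Fcer1a passed in neither comparison. Within the sets Csf2rb and Fcer1g had differences in WT T-ALL that were not called (0.94 and 1.09 in set A, 1.48 and 1.49 in set B, limma adjusted p of 0.0661 to 0.198). With the erythroid score as a covariate they were 0.02 and 0.13 (limma adjusted p = 0.992 and 0.951). Tnfrsf18 stayed lower in WT T-ALL in each of these (adjusted p of 0.0318 within set A and 0.00670 within set B). With that covariate neither Tnfrsf18 (-2.23, limma adjusted p = 0.145) nor Fcer1g (0.08, limma adjusted p = 0.982) was called in Notch3 KO T-ALL. Fcer1g lies close to the threshold. In WT T-ALL its difference was 1.31 to 1.42 without thymus 3, 4, 5 or 6 and 1.40 with no filter on low values, with an adjusted p of 0.0503 to 0.0722. In Notch3 KO T-ALL it was 1.87 to 2.09 without thymus 3, 4, 5 or 6, without Notch3 KO T-ALL 1 or 3 and with no filter, with an adjusted p of 0.0518 to 0.135.

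Related copies could share reads. Of the 100-base windows of coding transcripts, 0.882% in Ms4a4b (shared with Ms4a2 and Ms4a4c), 1.66% in Ms4a4c (with Ms4a4b) and 0.574% in Ms4a6c (with Prdm11) were also present in another gene, and none in Ms4a6b, Ms4a6d, Ms4a7 and Ms4a3. BE692007, a noncoding transcript on the opposite strand, overlaps Ms4a6c over 12027 bases and touches 7 of its annotated exons. The libraries were stranded, but whether the counting used strand is not given in the sources used here, so reads of BE692007 and Ms4a6c cannot be told apart with certainty.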

How the data were processed

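Stranded mRNA libraries were sequenced from 6 thymus and 17 leukemic spleen samples, and the authors mapped paired reads to mm10 with the OSA aligner in ArrayStudio. The deposited values are log2 of RPKM, and in every library the 75th percentile of the back-transformed values was 9.99 to 10.0, so that they are log2(scaled RPKM + 1). Counts were not used here and library depth is unknown, so no detection limit is given. The members and gene lists were chosen with earlier results of these data known. All 7 members are named whatever their values, and every gene of the lists may be named.

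Genes reaching a scaled RPKM of 1 in 3 or more of the fitted libraries were tested with limma 3.58.1 (lmFit, eBayes with trend and robust) in R 4.3.3 with Benjamini-Hochberg adjustment over all genes tested, with all 3 groups in the fits against thymus. The fits were tested on simulated data. P-values measure the spread between these libraries only. Correlations used two-sided permutation tests with 100000 resamples in Python. The nearest genes were the 5 with the highest Pearson's r, leaving out receptor, immunoglobulin, hemoglobin, ribosomal and predicted genes. Alternatives were another offset of 0.1, other filters, quantile normalization, rescaling without mitochondrial and hemoglobin genes, an erythroid covariate, a replicate block and leaving out each library. The erythroid score was the mean level of the erythroid markers. The split into sets A and B and the fits without WT T-ALL 108 and 110 were added after seeing the data. Positions came from GENCODE and promoters from RefSeq, both on GRCm38. No 2 libraries held identical values.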

Additional observations from a re-analysis of the deposited data

How the results depend on the processing

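The differences of Ms4a4b, Ms4a6b and Ms4a4c from thymus kept their sign in all 29 alternatives for WT T-ALL and all 16 for Notch3 KO T-ALL. With an offset of 0.1, the difference from thymus in WT T-ALL was -1.22 for Ms4a4c, 2.06 for Ms4a6d, -0.70 for Ms4a7 and 5.14 for Ms4a3, in Notch3 KO T-ALL -1.19 for Ms4a4c, 2.21 for Ms4a6d, 0.88 for Ms4a7 and 3.96 for Ms4a3, and Ms4a7 differed by 1.57 between the leukemic groups. With the erythroid score as a covariate, WT T-ALL against thymus gave -1.02 for Ms4a4c, -0.29 for Ms4a6c, 0.22 for Ms4a6d, -0.68 for Ms4a7, 0.33 for Ms4a3 and -0.19 for Ms4a8a, and Notch3 KO T-ALL against thymus -1.21 for Ms4a4c, -0.44 for Ms4a6c, -0.36 for Ms4a6d, -0.21 for Ms4a7 and -1.96 for Ms4a3. That score is itself far higher in spleen than in thymus. Rescaled without mitochondrial and hemoglobin genes, Ms4a6c was 0.23 (WT T-ALL) and 0.48 (Notch3 KO T-ALL) and Ms4a7 -0.42 and 0.28, and after quantile normalization Ms4a7 was -0.46 and 0.16. Ms4a6c in WT T-ALL was 0.15 without WT T-ALL 108 and 110. Ms4a7 in WT T-ALL was 0.13 within set A, and in Notch3 KO T-ALL 0.97. Ms4a3 in Notch3 KO T-ALL was 3.11 with the split as a term. Leaving out 1 library, Ms4a3 in Notch3 KO T-ALL against thymus ran from 1.37 to 3.05.

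Counts of called genes also moved. WT T-ALL against thymus (6150) gave 1745 with the erythroid covariate and 1709 within set A. Notch3 KO T-ALL against thymus (4475) gave 363 and 2825, and 2859 (without Notch3 KO T-ALL 3) to 4292 without 1 library. Between the leukemic groups (72) the count was 39 with the offset of 0.1, 6 and 134 with a filter at 5 and with none, 18 with the erythroid covariate, 254 with thymus in the fit, 159 with the split as a term, 13 within set A, 157 without WT T-ALL 108 and 110, and 3 (without Notch3 KO T-ALL 2) to 205 (without Notch3 KO T-ALL 1) without 1 library, with 12 without Notch3 KO T-ALL 3 and 158 without WT T-ALL 108. Slopes on the macrophage score (414) numbered 193 with the filter at 5, 222 after quantile normalization, 272 with the split as a term, 76 without WT T-ALL 108 and 110, and 173 (without WT T-ALL 108) to 530 without 1 library, with 259 to 273 without WT T-ALL 4, 5, 36 or 110. On the monocyte score (796) they numbered 337 and 1287 with the 2 filters, 78 without those libraries and 326 to 803 without 1, and on the neutrophil precursor score (637) 247, 965, 34 and 175 to 679. Both lowest counts were those without WT T-ALL 110. Slopes that were not called changed sign for Ms4a6b on the macrophage score (-0.0013 with the split as a term, -0.052 without WT T-ALL 108 and 110) and on the neutrophil precursor score (-0.057), and for Ms4a4b on the monocyte score (-0.31, and -0.17 to 0.20 without 1 library) and on the neutrophil precursor score (-0.28 to 0.026). Apart from what a construction removes, the cause was not tested.

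The labels number the controls and the leukemia cases within each group, so the numbers were not read as pairs. Deviations of same-numbered libraries correlated between -0.24 and 0.15. No differently numbered libraries were compared in this way, so these values alone cannot exclude a pairing. With the replicate block, WT T-ALL against thymus gave 2926 calls and differences of 1.37 for Ms4a3, 0.48 for Ms4a6d and -0.34 for Ms4a6c. The comparison of leukemic groups gave 1 call, and its difference for Ms4a3 turned to 0.61. The limma differences of Ms4a4a (0.35), Csf2rb (0.43) and Fcer1g (0.49) in WT T-ALL against thymus were not called with the block (adjusted p = 0.464, 0.357 and 0.280).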
